A study of Mus musculus with 3 samples.

Results

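The regions described here were H3K27me3 regions of mouse embryonic stem cells (mESCs) that overlapped the serine 5 phosphorylated form of RNA polymerase II (Pol2-S5p) and not the serine 7 phosphorylated form (Pol2-S7p). A region was a member when it was narrower than 80 kb, shared at least 1 bp with a Pol2-S5p region and shared none with a Pol2-S7p region. Members were thus selected on 3 measured values, the width and the overlap with each polymerase mark, which are no findings below. These criteria gave 2716 of 17342 H3K27me3 regions, 15.7% of the list, with a total length of 25.5 Mb out of 236 Mb. The other regions under 80 kb comprised 7002 with both polymerase marks, 6604 with neither and 426 with Pol2-S7p alone, and 594 regions were 80 kb or wider. All 3 marks were mapped by chromatin immunoprecipitation sequencing (ChIP-seq) in F123 cells, a male mESC line from a cross of S129/Jae and Cast mice. Cells were grown on feeder fibroblasts and then moved to feeder-free plates for the last passages before harvest. The data were 3 lists of enriched regions, with 1 library per mark and thus no replicates, treatments or control cells. The intervals given with shares are exact (Clopper-Pearson, 95%) and reflect counting error alone, and no difference could be tested against replicate spread.

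H3K27me3 is the histone mark deposited by Polycomb repressive complex PRC2, and in mESCs it covers CpG-rich promoters of developmental genes that are silent until differentiation. RNA polymerase II carries repeats on its C-terminal domain whose phosphorylation changes during transcription. Serine 5 phosphorylation is acquired at initiation, and serine 7 phosphorylation accompanies transcription of active genes. Promoters with H3K27me3 and Pol2-S5p but without Pol2-S7p are known from mESCs as Polycomb-repressed promoters that hold a paused form of the polymerase.

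The cell type was checked at the promoters of marker genes, within windows of 2 kb centred on each annotated transcription start site (TSS). Of the 8 embryonic stem cell markers, which included Pou5f1, Nanog and Zfp42, 8 had Pol2-S5p, 8 had Pol2-S7p and 0 had a member. H3K27me3 was present at 3 of these 8, Sox2, Klf4 and Esrrb. Of the 8 feeder fibroblast markers 3 had Pol2-S5p, 1 had Pol2-S7p and 5 had H3K27me3, and Thy1, a surface protein, was the 1 gene of that list with a member. Region lists show where marks were called and do not measure expression.

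The sequences of several members are given first, because the CpG content of the Pol2-S5p part separated it from the rest of the same region in most members, as the comparison of both parts shows below. Each stretch is 300 bases of the RefSeq GRCm38.p6 (mm10) assembly, written 5′ to 3′ with every CpG dinucleotide in capitals. Promoters run from 250 bases before to 50 bases after the RefSeq start of the gene. For 2 transcription factor genes, Gfi1 (a zinc finger repressor of blood development) and Tbx1 (a T-box factor of the pharyngeal arches), the promoter lay in the Pol2-S5p part. The second stretch was the centre of the longest part of the same member without Pol2-S5p, on the strand of the gene. The Gfi1 promoter (chr5:107725756-107726055, minus strand) held 16 CpGs and the stretch outside Pol2-S5p (chr5:107718650-107718949) held 3. The Tbx1 promoter (chr16:18588850-18589149, minus strand) held 26 CpGs and the stretch outside Pol2-S5p (chr16:18577750-18578049) held 3.
Gfi1 promoter, in Pol2-S5p: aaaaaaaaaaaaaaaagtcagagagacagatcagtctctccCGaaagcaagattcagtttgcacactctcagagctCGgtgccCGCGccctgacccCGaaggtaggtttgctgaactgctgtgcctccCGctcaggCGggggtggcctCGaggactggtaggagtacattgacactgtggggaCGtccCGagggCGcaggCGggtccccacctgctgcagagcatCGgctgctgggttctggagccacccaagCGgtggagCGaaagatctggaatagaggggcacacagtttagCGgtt
Gfi1 member, outside Pol2-S5p: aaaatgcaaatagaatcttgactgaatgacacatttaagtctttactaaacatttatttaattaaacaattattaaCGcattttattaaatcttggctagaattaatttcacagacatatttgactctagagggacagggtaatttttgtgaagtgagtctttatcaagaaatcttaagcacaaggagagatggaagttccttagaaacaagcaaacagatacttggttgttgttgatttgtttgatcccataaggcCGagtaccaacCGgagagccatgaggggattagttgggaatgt
Tbx1 promoter, in Pol2-S5p: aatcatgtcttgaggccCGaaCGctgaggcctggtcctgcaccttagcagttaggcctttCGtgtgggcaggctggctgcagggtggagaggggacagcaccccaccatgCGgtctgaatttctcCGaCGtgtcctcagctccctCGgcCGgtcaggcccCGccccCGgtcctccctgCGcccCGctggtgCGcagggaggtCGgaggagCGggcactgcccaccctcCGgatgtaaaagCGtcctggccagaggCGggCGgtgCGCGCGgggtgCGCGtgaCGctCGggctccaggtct
Tbx1 member, outside Pol2-S5p: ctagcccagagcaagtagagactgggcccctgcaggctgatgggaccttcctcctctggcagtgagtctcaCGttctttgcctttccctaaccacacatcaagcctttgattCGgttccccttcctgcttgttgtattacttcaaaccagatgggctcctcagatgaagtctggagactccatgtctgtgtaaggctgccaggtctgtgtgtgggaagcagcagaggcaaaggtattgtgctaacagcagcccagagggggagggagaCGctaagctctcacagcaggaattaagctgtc

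Promoters of a neurotrophin and of potassium channels showed the range of CpG content among members. The Bdnf promoter (chr2:109692186-109692485, plus strand), one of several start sites of this neurotrophin gene, held 12 CpGs. The promoter of Kcnd2 (chr6:21215096-21215395, plus strand), a voltage-gated potassium channel, held 26 CpGs. The promoter of Kcnc2 (chr10:112269767-112270066, plus strand), a channel of the same superfamily, held 3 CpGs although its start also lay in Pol2-S5p.
Bdnf promoter: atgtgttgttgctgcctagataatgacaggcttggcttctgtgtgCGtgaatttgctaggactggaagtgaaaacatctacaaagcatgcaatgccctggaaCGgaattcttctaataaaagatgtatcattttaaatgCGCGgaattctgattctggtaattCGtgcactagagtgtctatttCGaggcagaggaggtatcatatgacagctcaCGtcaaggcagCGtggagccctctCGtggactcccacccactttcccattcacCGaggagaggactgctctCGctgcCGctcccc
Kcnd2 promoter: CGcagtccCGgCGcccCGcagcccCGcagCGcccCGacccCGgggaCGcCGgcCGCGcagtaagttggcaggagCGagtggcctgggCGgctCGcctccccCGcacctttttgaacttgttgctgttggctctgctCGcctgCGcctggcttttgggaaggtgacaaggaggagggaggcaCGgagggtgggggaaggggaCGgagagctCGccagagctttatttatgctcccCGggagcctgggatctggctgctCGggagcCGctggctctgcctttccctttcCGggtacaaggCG
Kcnc2 promoter: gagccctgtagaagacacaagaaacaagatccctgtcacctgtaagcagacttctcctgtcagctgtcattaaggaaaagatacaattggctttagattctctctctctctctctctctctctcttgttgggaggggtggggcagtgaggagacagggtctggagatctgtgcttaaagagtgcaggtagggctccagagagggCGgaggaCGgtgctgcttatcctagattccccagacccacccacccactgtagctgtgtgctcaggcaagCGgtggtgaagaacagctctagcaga

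Away from the promoter windows of coding and long noncoding RNA genes in GENCODE, the members with the highest Pol2-S5p scores were a pair of regions on chromosome 6. They were chosen for display for that reason. RefSeq places Rn4.5s and several predicted genes in the first of them, and the centre of the Pol2-S5p part (chr6:47666750-47667049, plus strand of the assembly) held 2 CpGs. In the second, the centre (chr6:47757650-47757949, plus strand of the assembly) held 22 CpGs.
chr6:47646600-47687199, Pol2-S5p part: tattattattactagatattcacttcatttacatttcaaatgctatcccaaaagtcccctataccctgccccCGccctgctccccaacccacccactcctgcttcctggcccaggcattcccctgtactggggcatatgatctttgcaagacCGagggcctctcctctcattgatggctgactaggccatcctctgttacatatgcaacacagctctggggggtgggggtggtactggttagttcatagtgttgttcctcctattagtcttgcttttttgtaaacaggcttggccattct
chr6:47737000-47778599, Pol2-S5p part: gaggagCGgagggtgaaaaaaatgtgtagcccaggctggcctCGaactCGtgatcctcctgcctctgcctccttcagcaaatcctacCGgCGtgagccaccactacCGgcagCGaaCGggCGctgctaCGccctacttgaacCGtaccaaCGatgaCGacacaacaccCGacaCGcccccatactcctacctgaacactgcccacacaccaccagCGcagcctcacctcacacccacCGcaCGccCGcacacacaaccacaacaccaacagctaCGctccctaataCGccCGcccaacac

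Members were mostly a few kilobases wide, and Pol2-S5p covered a variable part of them. Their width was 200 bp at the lowest, 3800 bp at the median (quartiles 1750 and 10000 bp) and 78200 bp at the highest. The median share of the length within Pol2-S5p was 60% (quartiles 24.4% and 100%), with a median of 1600 bp. The score given to each region by the peak finder, whose unit is not stated, had a median of 9.48 for H3K27me3 in members, against 9.76 in regions with both polymerase marks and 6.84 in regions with neither. The score of the overlapping Pol2-S5p region had a median of 7.64 in members and of 13.1 in regions with both marks. These values belong to the selection of the members and are given as a description.

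At the limits of the selection, the widest member measured 78200 bp, and the narrowest region with Pol2-S5p and without Pol2-S7p that the width limit left out measured 80000 bp (chr5:117503600-117583599). It was 1 of 59 such wide regions. The smallest Pol2-S5p overlap was 200 bp, in 52 members, and 15 regions with neither polymerase mark directly adjoined a Pol2-S5p region. On the Pol2-S7p side, 8 members directly adjoined a Pol2-S7p region and 336 lay within 5000 bp of one, whereas 78 regions with both marks shared only 200 bp with Pol2-S7p. The distance to the nearest Pol2-S7p region was 36.4 kb at the median of members (quartiles 11.75 and 93.2 kb), and 635 members lay over 100 kb away. Members directly adjoining Pol2-S7p included promoters of Crhr2, a receptor of corticotropin-releasing hormone family peptides, and Nav2, a gene of neuronal outgrowth.

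The arrangement of both marks divided the members into groups with different positions and sequence. In 1320 members (48.6%, interval 46.7 to 50.5%) a single Pol2-S5p region lay inside the H3K27me3 region, and this Pol2-S5p region had a median width of 1400 bp within H3K27me3 of 5200 bp. Of these, 696 (52.7%) touched a coding promoter window. In 602 members (22.2%) the reverse arrangement was found, with an H3K27me3 region of 1800 bp at the median inside a Pol2-S5p region of 18.4 kb (quartiles 2800 bp and 60 kb). Only 92 of these (15.3%) touched a coding promoter window. In 300 of these 602 members (49.8%) the surrounding Pol2-S5p region itself touched a Pol2-S7p region at another position, outside the H3K27me3 region to which the selection applies. A further 510 members met Pol2-S5p across 1 end, 141 shared both ends with it, and 143 held several Pol2-S5p regions. The last group was the widest, at 23.2 kb at the median, and touched coding promoters most often, in 88 regions (61.5%). Regions with identical ends were rich in repeats, with 64.7% of the sequence masked at the median, against 20.2% over all members.

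Members lay at promoters less often than regions with both polymerase marks and more often than regions without either. A coding promoter window was touched by 1047 of 2716 members (38.5%, interval 36.7 to 40.4%), by 4357 of 7002 regions with both marks (62.2%, 61.1 to 63.4%) and by 853 of 6604 regions with neither (12.9%, 12.1 to 13.7%). The share over all H3K27me3 regions was 39.2%, close to that of members. When regions scoring at or below the median of each list were dropped, the classes were formed anew from the regions left. A region that lost its Pol2-S7p overlap then counted as a member if its Pol2-S5p overlap remained. The share was 62% of 1366 members so formed (59.4 to 64.6%). It was 69.9% of 2229 regions with both marks (68 to 71.8%) and 34.9% of 4455 with neither (33.5 to 36.3%). The Pol2-S5p list had a median score of 10.8, and only 679 of the 2716 members had a Pol2-S5p score above 10.6. Most of the 1366 were therefore outside the main selection. Over all scores, the order was kept in each of the 7 width classes, although the intervals of members and of regions with neither mark overlapped below 1 kb. Among regions over 2 and up to 5 kb wide, the share was 42.3% of 757 members, 67.2% of 1696 regions with both marks and 17.4% of 1670 regions with neither. CpG-island-like sequence followed the same order. A window of 500 bp with over 50% GC and over 0.6 of the CpGs expected from base composition was found in 48.8% of members, in 73% of regions with both marks and in 16.3% of regions with neither.

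**Figure D1:**
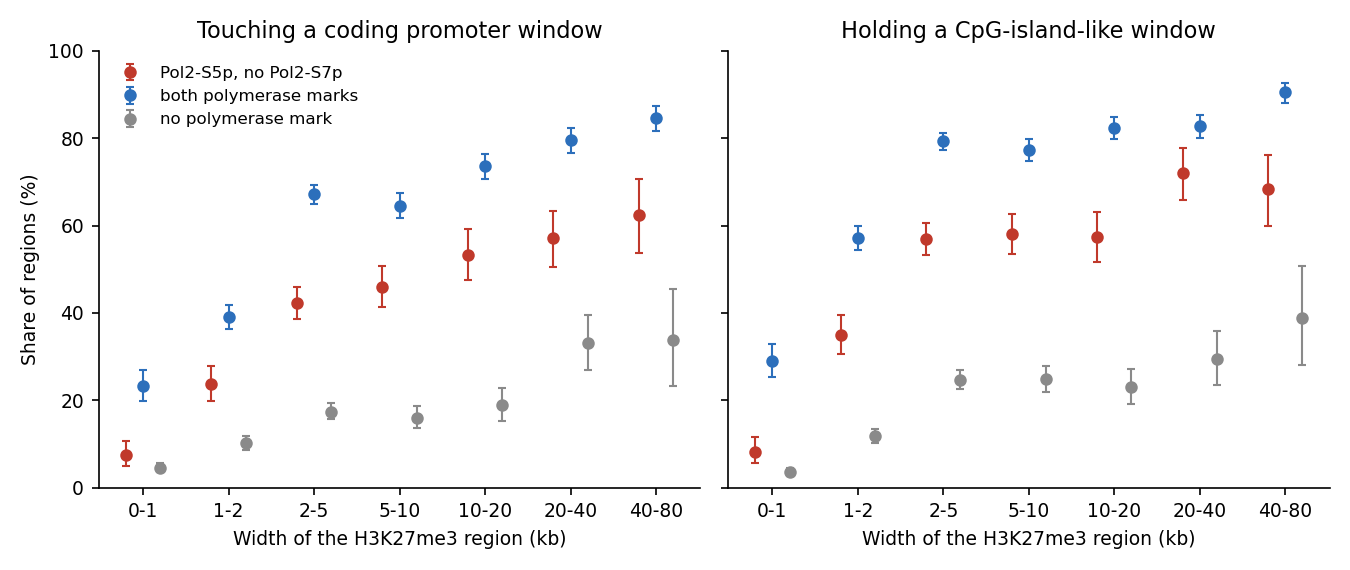
Share of H3K27me3 regions (%) that touch a coding promoter window (left) or hold a CpG-island-like window (right), by region width in kb, for members (red), regions with both polymerase marks (blue) and regions with neither (grey), with 95% Clopper-Pearson bars. Members lie between the other classes in each width class, at 42.3% against 67.2% and 17.4% for promoters in regions over 2 and up to 5 kb.

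Because members had lower Pol2-S5p scores than regions with both marks, the same shares were read within classes of that score, bounded by its quartiles in members. In the lowest class, up to a score of 5.56, coding promoters were touched by 20% of members (interval 17.1 to 23.2%) and by 25.6% of regions with both marks (21.9 to 29.6%). In the highest class, above 10.6, they were touched by 53% of members (49.2 to 56.8%) and by 69.5% of regions with both marks (68.1 to 70.9%). For coding promoters the difference was thus present above a score of 5.56, and the intervals overlapped below it. CpG-island-like windows differed in the lowest class too, with 32.4% of members against 51.7% of regions with both marks. In the highest class these shares were 64.8% and 80%. The part of the Pol2-S5p score in the absence of a Pol2-S7p call was not tested.

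Within members, the part covered by Pol2-S5p was richer in CpG than the remainder of the same H3K27me3 region. The CpG ratio, the number of CpGs divided by that expected from the C and G content, was computed for both parts in the 1972 members with at least 200 bp of each. Its median was 0.438 inside Pol2-S5p and 0.221 outside, with a median difference within a member of 0.19 (interval of the median 0.18 to 0.21), and it was higher inside in 1677 members (85%, 83.4 to 86.6%). At coding promoters the medians were 0.558 inside and 0.228 outside, and 883 of 931 members had the higher ratio inside. In members away from coding and long noncoding RNA (lncRNA) promoters the medians were 0.324 inside and 0.211 outside, and 709 of 929 had the higher ratio inside. A CpG-island-like window was present in 1135 of the 1972 members, and 1064 of these (93.7%) held one inside the Pol2-S5p part, which made up 26.8% of the total length. In regions with both polymerase marks the medians were 0.507 inside and 0.223 outside. The sequence outside Pol2-S5p was therefore at about the same CpG ratio in both classes, 0.221 in members and 0.223 in regions with both marks.

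**Figure D2:**
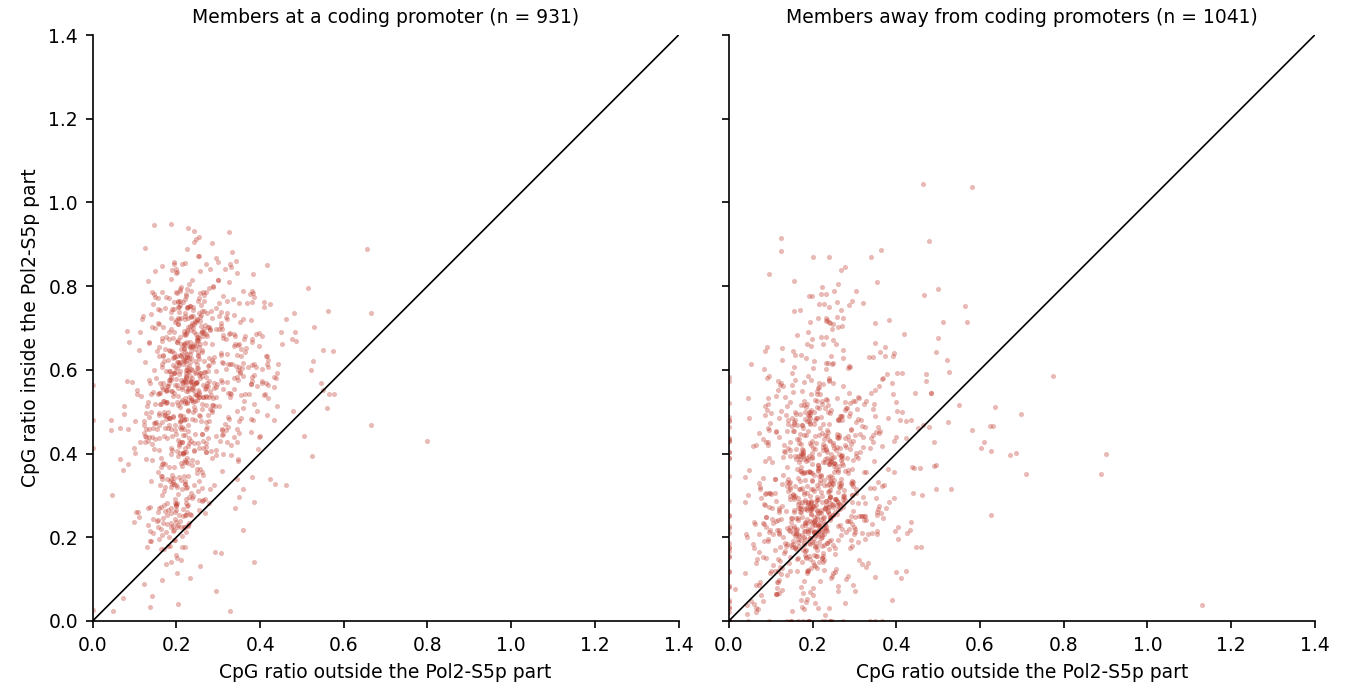
CpG ratio (observed over expected, no unit) inside the Pol2-S5p part against that outside it, 1 point per member with at least 200 bp of each, for members at coding promoters (left) and away from them (right), with the line of equal ratios. At promoters 883 of 931 points lie above the line.

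Start sites lay within the Pol2-S5p part of the members. Of 1001 members that contained a coding TSS, 873 (87.2%, interval 85 to 89.2%) had one in the Pol2-S5p part, which held 28.5% of their length. In regions with both marks this was 4011 of 4180 (96%, 95.3 to 96.5%), with 46% of the length in Pol2-S5p. To describe the extent of each mark, 372 members that contained their only annotated TSS, of a coding gene, were aligned at that site. Pol2-S5p covered the TSS in 309 of them (83.1%, 78.9 to 86.7%), lay entirely downstream in 49 and entirely upstream in 11. Where it covered the TSS, Pol2-S5p reached a median of 534 bp upstream and 1100 bp downstream, and was longer on the downstream side in 218 of 309. H3K27me3 reached a median of 1754 bp upstream and 2405 bp downstream. In the 1078 of 1146 regions with both marks whose Pol2-S5p covered the TSS, it reached a median of 1512 bp downstream, with an upper quartile of 19.8 kb, whereas the upper quartile in members was 1878 bp.

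**Figure D3:**
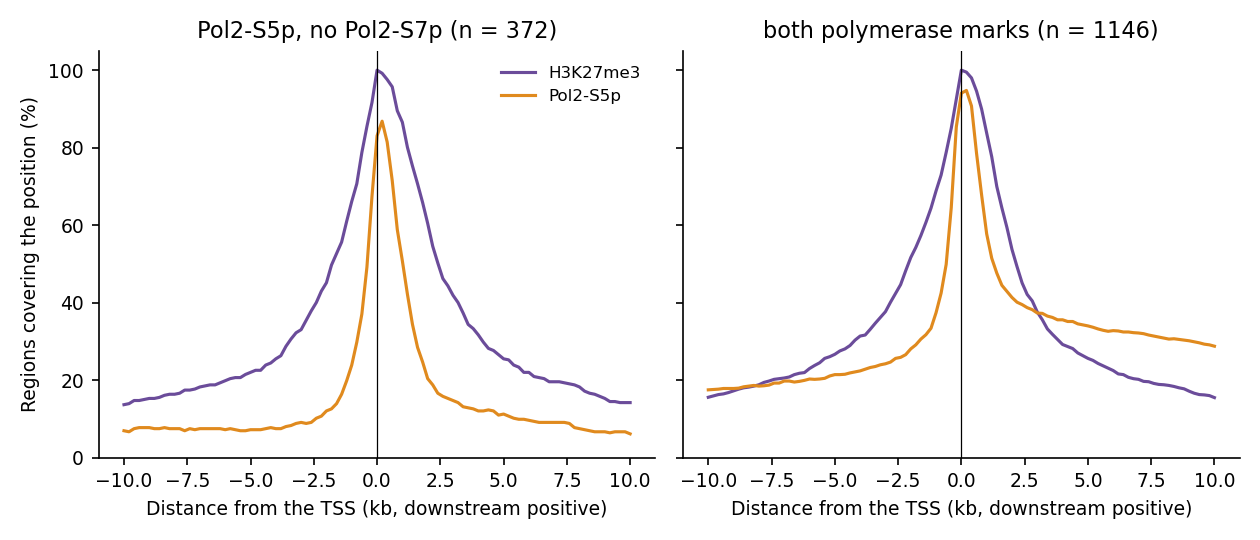
Share of regions (%) in which H3K27me3 (purple) or Pol2-S5p (orange) covers a position, by distance from the only annotated TSS in kb (downstream positive), for 372 members (left) and 1146 regions with both polymerase marks (right). In members Pol2-S5p covers the TSS in 83.1% and falls to 20.4% at 2 kb downstream, where H3K27me3 covers 60.5%.

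The letters of the promoters differed along the same lines. Of the RefSeq promoters of 300 bases, 846 from 726 coding genes had their start in a member, and they held a median of 14 CpGs (quartiles 7 and 23), against 21 for promoters in regions with both marks, 8 in regions with neither and 14 over all 20150 coding promoters. Within members, the 701 promoters with their start in the Pol2-S5p part held a median of 17 CpGs, whereas the 145 with their start outside it held 5. The letters TATAAA, searched on both strands, were found in 9.22% of promoters in members (interval 7.36 to 11.4%), in 6.61% of those in regions with both marks (5.92 to 7.37%), in 10.3% of those in regions with neither (7.92 to 13.1%) and in 12.1% of all coding promoters (11.7 to 12.6%). Inside the Pol2-S5p part the share was 7.85% (5.97 to 10.1%) and outside it 15.9% (10.3 to 22.8%), so that these intervals narrowly missed each other. These promoters came from 611 and 132 genes, and several starts of a gene were counted separately. The part of base composition in this difference was not tested.

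Members touched the promoter windows of 1153 of 21938 coding genes, a background of 5.26%. Of the 8995 coding genes with H3K27me3 at a promoter window, these were 12.8%. Regions with both marks touched 25.9% of all coding genes and 63.1% of those with H3K27me3, and regions with neither touched 4.02% of all coding genes. A single gene was touched by 955 members, a pair by 79 and 3 or more by 13. In 1020 of the 1153 genes (88.5%) the Pol2-S5p part itself reached the window. The genes were long, at a median of 40.1 kb, against 22.4 kb for genes at regions with both marks, 28.7 kb for genes at regions with neither and 17.4 kb for all coding genes. Members covered the start and not the whole of most of these genes, since H3K27me3 covered a median of 22.1% of the gene and Pol2-S5p 5.29%. Pol2-S7p was found elsewhere in the body of 364 genes (31.6%), where it covered a median of 1.69% of the gene, and at another promoter window of 102 genes (8.85%). Bdnf was such a gene, with a member of 3400 bp at the start shown above and Pol2-S7p at another of its windows.

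Among transcription factors of development, 74 of 276 genes had a member at a promoter window. This was 27.4% (interval 22.2 to 33.1%) of the 270 genes of the list with H3K27me3, against the background of 12.8%, and a further 125 genes had regions with both marks and 60 had regions of 80 kb or wider. The members at these genes were wide, with a median of 19.5 kb, and H3K27me3 covered a median of 100% of the gene and Pol2-S5p 62%. Gfi1 had a member of 12 kb (chr5:107717000-107728999) with an H3K27me3 score of 31.7, the highest of the list, and Pol2-S5p over 55% of it. Tbx1 had a member of 24.6 kb, of which Pol2-S5p covered 71.5%, and Tbx2, a T-box factor of heart and limb development, one of 27.6 kb with 51.4%. The neighbouring homeobox genes Hmx2 and Hmx3, both of inner ear development, shared 1 member of 18 kb, which ended 1800 bp from the nearest Pol2-S7p region. Otx1, a homeobox factor of the forebrain, had a member of 16 kb with 77.5% in Pol2-S5p. None of the 74 genes had Pol2-S7p at another promoter window. When only members under 10 kb were counted, 18 of the 270 genes remained, 6.67% (4 to 10.3%) against a background of 7.55%, so the difference from the background rested on the wider members. When Pol2-S5p had to cover at least 50% of the H3K27me3 region, 9.42% of the 276 genes had a member, against 2.11% of all coding genes. Both shares count genes without H3K27me3, unlike the 27.4% and 12.8% above. The mark was present at 270 of the 276 genes but at only 8995 of 21938 coding genes. Over all coding genes, members under 10 kb touched 3.1%.

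Hox genes, the homeobox genes that pattern the body axis, lay mostly in regions of 80 kb or wider. All 39 had H3K27me3 at a promoter window, but 30 lay in regions of 80 kb or wider and 8 in regions with both marks. Hoxb13 was the 1 Hox gene at a member (2.56%, interval 0.0649 to 13.5%, which includes the background of 12.8%), in a region of 64.6 kb whose Pol2-S5p part did not reach the promoter window.

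Ligands and their receptors were found at narrower members. Secreted ligands and inhibitors had a member at 29 of 107 genes with H3K27me3 (27.1%, interval 19 to 36.6%), of which 18 were under 10 kb (16.8%, 10.3 to 25.3%, against a background of 7.55%). The neurotrophin genes Bdnf and Ntf3 had members of 3400 and 5600 bp, with 70.6% and 96.4% of the length in Pol2-S5p. Gdnf, a neurotrophic factor of the enteric nervous system and kidney, had a member of 19 kb. Shh, the morphogen of neural tube and limb, had one of 28.6 kb that ended 10.4 kb from Pol2-S7p. Dkk2, an inhibitor of Wnt signalling, had one of 4200 bp. Fgf12, also in the list, belongs to the fibroblast growth factor family by sequence but its protein acts inside cells on sodium channels, and its member measured 6000 bp.
Among signalling receptors 9 of 57 genes with H3K27me3 had a member (15.8%, 7.48 to 27.9%), an interval that includes the background of 12.8%. They included Ntrk2 and Ntrk3, the receptors of the proteins of Bdnf and Ntf3, with members of 6200 and 37400 bp, and Gfra1 and Gfra2, co-receptors of the Gdnf family, with 11600 and 16000 bp. Erbb4, a neuregulin receptor and a gene of over 1 Mb, had a member of 4800 bp, and all H3K27me3 regions together covered 0.563% of the gene.

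Neuronal channels and transmitter receptors had the highest share of the lists with at least 20 genes with H3K27me3. A member was found at 45 of 124 such genes (36.3%, interval 27.8 to 45.4%), as many genes as had regions with both marks (45). Of these, 27 had members under 10 kb (21.8%, 14.9 to 30.1%, against 7.55%). The members had a median width of 7200 bp and Pol2-S5p covered a median of 31.1% of them. Voltage-gated potassium channels led the ranking by the length of the window with both marks, with Kcnc2 (3800 bp, 84.2% in Pol2-S5p), Kcna1 (6800 bp, 50%) and Kcnd2 (3200 bp, 93.8%). They were followed by Slc6a5, the glycine transporter of inhibitory neurons, with a member of 11.4 kb, and Htr1b, a serotonin receptor, with 5800 bp. Kcnk10, a potassium leak channel, had a member of 10.4 kb. The nearest Pol2-S7p region was 87.2 kb away at the median of the 45 genes.

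Genes of axon guidance and of cell adhesion had intervals that included the background of 12.8%, and matrix genes lay above it. Axon guidance genes had a member at 13 of 65 genes with H3K27me3 (20%, interval 11.1 to 31.8%), among them Dcc, a netrin receptor, and Robo2, a receptor of Slit proteins, with members of 3200 and 4400 bp. Cadherins and protocadherins had 7 of 26 (26.9%, 11.6 to 47.8%), including Cdh11 and Pcdh7, and each of the 7 members was under 10 kb. Collagens and other matrix genes had 13 of 42 (31%, 17.6 to 47.1%), with Col27a1, a fibrillar collagen, at 6400 bp. At Col8a2, a collagen of the corneal membrane, Pol2-S5p covered 100% of a member of 34.4 kb.

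Gene lists of housekeeping and of other tissues had few genes with H3K27me3, and their intervals included the background of 12.8%. Of 72 ribosomal protein genes 11 had H3K27me3, none of them had a member (interval up to 28.5%), and 72 had Pol2-S7p. Of 34 blood and immune genes 15 had H3K27me3 and none had a member (up to 21.8%). Of 6 glycolysis genes with H3K27me3 Hk1, a hexokinase, was the only one with a member (16.7%, 0.421 to 64.1%), which had no Pol2-S5p in the promoter window, and Hk1 had Pol2-S7p over 64.8% of its body. Of 7 secreted liver protein genes with H3K27me3 2 had a member (28.6%, 3.67 to 71%), Trf (transferrin) and Serpinc1 (antithrombin).

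**Figure D4:**
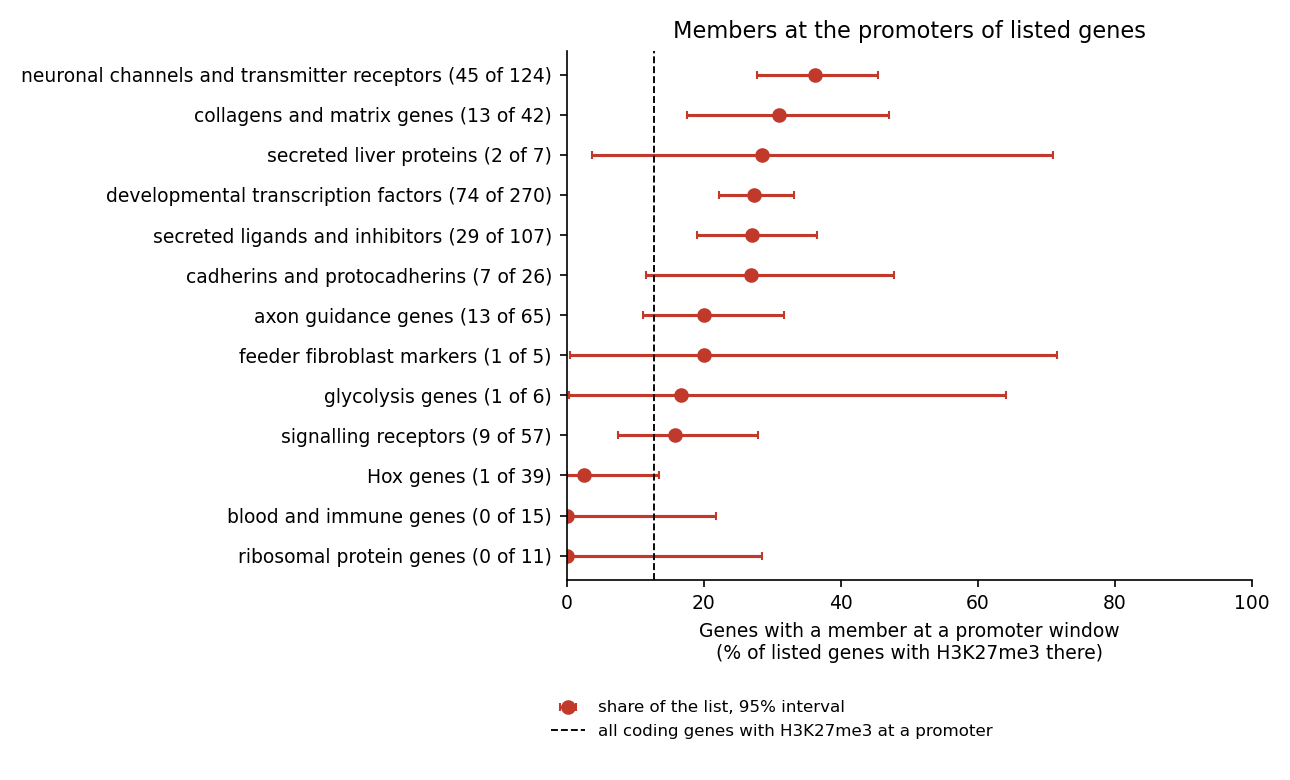
Share of listed genes with H3K27me3 at a promoter window that have a member there (%), with 95% Clopper-Pearson bars and the number of genes, for lists with at least 5 such genes, beside the share over all coding genes with H3K27me3 at a promoter (dashed line, 12.8%). Neuronal channels (36.3%), matrix genes (31%), transcription factors (27.4%) and ligands (27.1%) have intervals above the line.

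The members with the highest scores were partly outside annotated coding genes. The highest H3K27me3 score, 177, belonged to a region of 4200 bp (chr15:91906400-91910599) at a start site of Muc19, which the annotation used here lists among the lncRNA genes, with Pol2-S5p over 95.2% of it. The regions on chromosome 6 whose sequence is shown above followed with 131 and 123.2, at widths of 40.6 and 41.6 kb. RefSeq masks 29.4% and 33.3% of them as repeats, and how reads with several matches were treated is not given in the sources used here. The part of such reads in these scores, and in those of other members in repeats, was not tested. Among promoters, the highest scores were those of Fstl4, a follistatin-like gene (44.1), and Npbwr1, a neuropeptide receptor (41.7), in members of 2600 and 2000 bp. Inside genes, members of 1000 bp in Klhl31, a muscle gene, and of 600 bp in Tiam2, a Rac exchange factor, had scores of 57.8 and 42.1. Among members that touched a coding promoter window, the highest scores of an overlapping Pol2-S5p region were 68.1, 43.2 and 32. The first was at H2-T3, a nonclassical histocompatibility gene of a family of similar copies. The others were at Smim17, a small membrane protein gene, and Npas4, an activity-dependent transcription factor of neurons. The H3K27me3 region touched the window, and the Pol2-S5p part need not lie in it. In these 3 members Pol2-S5p covered 1.08%, 8.82% and 1.68% of the length.

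Of the 10 widest members, 5 held several Pol2-S5p regions and 4 touched a coding promoter window. The region at Dlk1 (chr12:109436000-109513999), an imprinted gene of the Notch ligand family, measured 78 kb and held 5 Pol2-S5p regions over 24.9% of its length, more regions than any other member. Msx2, a homeobox gene of skull and limb, lay in a member of 75.4 kb with 15.9% in Pol2-S5p. Nr2e1, a nuclear receptor of neural stem cells, and its neighbour Ostm1 shared 1 of 76.2 kb with 35.4%. The member at Bcl2l14, a gene of the Bcl2 family, measured 77 kb with 20.8%.

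Away from promoters, 1537 members (56.6%, interval 54.7 to 58.5%) touched neither a coding nor a lncRNA promoter window, and 132 touched a lncRNA window alone. Of the 1537, 902 lay between genes, 266 touched an exon of a coding gene, 301 lay in introns and 68 in lncRNA genes. Intronic members were the narrowest, with a median of 1400 bp, and Pol2-S5p covered a median of 100% of them. In 536 of the 1537 (34.9%) over 50% of the sequence was repeat-masked. Of the remaining 1001, 285 (28.5%, 25.7 to 31.4%) held a CpG-island-like window, and 228 of these lay over 10 kb from any coding TSS. Between genes, with repeat-rich regions included, members held such windows in 29.4%, against 42.9% of regions with both marks and 11.5% of regions with neither. The median repeat-masked share of these regions was 40.4% in members, 67.4% with both marks and 35.2% with neither.

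Chromosome X had the highest share of members. Of its 1005 H3K27me3 regions 226 were members (22.5%, interval 19.9 to 25.2%), whereas the share on the autosomes ran between 11.8% and 19%, with a median of 14.9%. Repeats were common in members on X, where 117 of 226 were over 50% repeat-masked (51.8%), against 6.25% to 23.9% on the autosomes. Without such regions the share on X was 26% (109 of 419, 21.9 to 30.5%), against 11.3% to 20.3% on the autosomes. Scores were low on X, which male cells carry as a single copy, with a median H3K27me3 score of 7.11 in members, against 7.94 to 12.9 on the autosomes. The ratio of called regions was 66 Pol2-S7p regions per 100 Pol2-S5p regions on X, within the 63.5 to 89.7 of the autosomes. The part of copy number and of repeats in the share on X was not tested. On chromosome Y, 80 of 81 members were over 50% repeat-masked, and their median H3K27me3 score was 3.11.

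**Figure D5:**
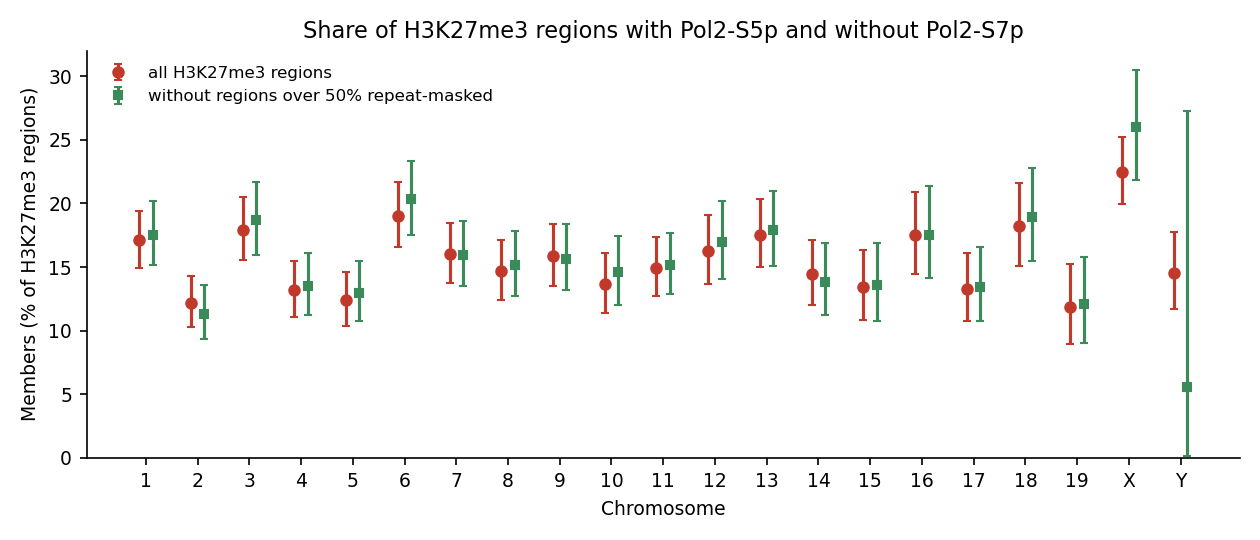
Members as a share of the H3K27me3 regions of each chromosome (%), over all regions (red circles) and without regions over 50% repeat-masked (green squares), with 95% Clopper-Pearson bars. Chromosome X has the highest share by either count, 22.5% and 26%.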

How the data were processed

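ChIP-seq of H3K27me3, Pol2-S5p and Pol2-S7p from F123 cells was used, with 1 library per mark. As stated in its methods, the authors aligned single-end reads of 75 bp with Bowtie2 2.3.4.3 to mm10, with strain variants masked, and called regions per library by the BCP (Bayesian change-point) software at default settings. How reads with several matches were treated is not given in the sources used here. The deposited tables hold a position, a width and a score per region. The unit of the deposited score is not stated. It was used to rank, to filter, to form score classes and to describe medians of classes and chromosomes. The deposited width, another kind of value in bp, is a multiple of 200 bp. No read counts were used here, so the depth behind a region is unknown.

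Regions overlapped from 1 bp on, and coordinates count from 1. Genes (21938 coding, 10155 lncRNA) were taken from GENCODE M21 on GRCm38, which is mm10, and sequence and repeat masking from RefSeq GRCm38.p6. A promoter window is 2 kb centred on any annotated TSS. The promoter table of RefSeq matched the genome in 32851 of 32851 entries. CpG-island-like windows are 500 bp long, moved in steps of 100 bp, with over 50% GC and a CpG ratio over 0.6, and belong to the region that holds their centre. Scripts used Python 3.11.15, NumPy 2.4.6, pandas 2.3.3, SciPy 1.17.1 and Matplotlib 3.10.9, and overlaps, classes and intervals were tested on simulated data. No test between groups was possible with 1 library per mark.

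Genes and regions were named by a rule. It takes the 10 members with the highest H3K27me3 score, the highest Pol2-S5p score, the largest width and the nearest Pol2-S7p region, and up to 6 genes per list, ranked by the length of the promoter window with both marks, then by H3K27me3 score. Printed promoters are from that ranking of transcription factors, ligands and neuronal genes. Some genes the rule gives are not described. The members, the gene lists and the rule were chosen with earlier results of these data known. Alternatives changed the score threshold, the overlap, the distance to Pol2-S7p, the width limit, repeats and the promoter window.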

Additional observations from a re-analysis of the deposited data

How the results depend on the processing

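The Pol2-S5p part of a member kept the higher CpG ratio under all 7 alternatives of the selection, and the median difference left its interval under 2 of them, with 0.34 when regions scoring at or below the median of their list were dropped and 0.14 when Pol2-S5p had to cover at least 50% of the H3K27me3 region. The stricter score, applied to all 3 lists before the classes were formed anew, gave 1366 members, most of them outside the main selection. Of the 1366, 62% touched a coding promoter window and the median CpG ratio was 0.373. Transcription factors were at 19.9%, against 4.62% of all coding genes. The overlap of at least 50% gave 1550 members, 27.1% at promoters, a CpG ratio of 0.298, 462 coding genes and transcription factors at 9.42%, against 2.11% of all coding genes. A Pol2-S5p overlap of at least 1000 bp gave 44.3% at promoters and a CpG ratio of 0.299. With no Pol2-S7p region within 5000 bp the CpG ratio was 0.298. A width limit of 10000 bp gave 32.6% at promoters, a CpG ratio of 0.325, 679 coding genes and transcription factors at 6.52%, against 3.1% of all coding genes. Among genes with H3K27me3 at a promoter window, that limit gave 6.67% of transcription factors against 7.55%. The transcription factor shares of the other settings also count genes without H3K27me3. Most of the list had the mark, 270 of 276 genes, against 8995 of 21938 coding genes. Without members over 50% repeat-masked 47.8% touched promoters, and with the TSS of the longest transcript alone 34.6% did. Why these values moved was not tested. No width limit and promoter windows of 1 kb or 5 kb left each value computed within its range. The count of listed genes at members under 10 kb and the stricter score in the other classes were chosen after seeing the data. No paired analysis was possible because each mark has 1 library. The lack of replicates, of read depth and of a stated unit of the score limits each comparison to these 3 libraries, and a missing Pol2-S7p region shows that none was called, not that the mark was absent.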
